A study of Mus musculus with 96 samples.

Results

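Hepatocytes, the main metabolic cells of the liver, were compared between mice with and without a deletion directed at both REV-ERB genes, at zeitgeber time 16 (ZT16, 16 h after lights on and thus in the dark phase, when mice are active and eat). The comparison took the 3 hepatocyte libraries labelled RevDKO and the 3 labelled Control at ZT16, that is 6 of the 96 RNA sequencing libraries of the series, and their mapping to groups came from the sample titles. Male C57BL/6J mice, 8 weeks old at injection, carried floxed alleles of Nr1d1 and Nr1d2, the genes of REV-ERBα and REV-ERBβ. Both groups received an adeno-associated virus whose cargo was driven by the hepatocyte-specific TBG promoter, with GFP as cargo in Control mice and Cre recombinase in RevDKO mice (labelled ReverbhDKO), and both then ate a high-fat, high-sucrose diet for 4 weeks, so that no animal on a standard diet enters the comparison. The deletion was thus directed at adult hepatocytes alone, and the Control mice had virus and floxed alleles but no Cre. A further group, RevScapTKO (labelled Reverb/ScaphTKO, with Scap floxed as well), and the Control and RevDKO libraries of ZT4, ZT10 and ZT22 served as reference, and the 36 hepatocyte libraries of these 3 genotypes shared 1 table.

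REV-ERBα and REV-ERBβ are nuclear receptors that bind DNA elements also used by the activating ROR receptors and recruit a corepressor complex with NCoR and the histone deacetylase HDAC3. In the circadian clock the activators BMAL1 (Arntl) and CLOCK or NPAS2 drive E-box genes such as the Per, Cry and Nr1d genes, and REV-ERBs in turn repress Arntl, Npas2, Nfil3, Cry1 and other genes with ROR elements. In the liver the receptors are known for the daily rhythm of lipid metabolism, and their own level peaks in the light phase, so that ZT16 falls after that peak.

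The promoter windows of 3 genes that the results turn on are shown for orientation: Npas2 and Loxl4, which had the largest rises, and Nfil3, a textbook target of REV-ERBs. Each window is the 120 bases before the RefSeq start in mouse build GRCm38.p6, read 5′ to 3′ on the gene's strand, with any matched motif in capitals. The motifs sought on both strands were the ROR element ANTNGGTCA, the E-box CACGTG and the D-box TTANNTAA.
Npas2, chr1:39194152-39194271, plus strand: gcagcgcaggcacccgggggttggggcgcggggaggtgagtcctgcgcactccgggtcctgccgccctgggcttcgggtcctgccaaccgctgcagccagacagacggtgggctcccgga
Loxl4, chr19:42612807-42612926, minus strand: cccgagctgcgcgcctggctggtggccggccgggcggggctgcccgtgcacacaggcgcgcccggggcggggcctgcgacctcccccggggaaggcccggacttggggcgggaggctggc
Nfil3, chr13:52981040-52981159, minus strand: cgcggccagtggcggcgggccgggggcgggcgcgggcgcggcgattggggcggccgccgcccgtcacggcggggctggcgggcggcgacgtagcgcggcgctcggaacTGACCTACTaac
The window of Nfil3 held a ROR element on the strand opposite to the gene, from 12 to 4 bases before the start. None of the 3 motifs was in the windows of Npas2 and Loxl4 or in either of the Arntl windows. Sequence further upstream or after the start was not searched, so this does not show that these genes lack the motifs. Among 32851 mouse windows of the same length, 0.804% held the ROR element, 3.66% the E-box and 2.31% the D-box. A window was at hand for 29 of the 40 genes that passed the test below, which is too few for a check of the whole set. A match is a description of letters and not a bound site.

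The values are RPKTM, an RPKM (reads scaled to transcript length and library size) multiplied by 10, quantile normalized by the authors over the 36 libraries, so that every library holds the same set of values and the sequencing depth behind a value is unknown. Of 25095 gene symbols, 13326 exceeded 5 RPKTM in at least 3 of the 36 libraries and were tested. Pearson's r across transcripts, which are not independent replicates, ranged from 0.966 to 0.977 within the libraries labelled RevDKO, from 0.965 to 0.968 within Control, and from 0.954 to 0.970 between the groups. Summed hepatocyte markers were of like size in both groups (597400 to 753900 RPKTM in Control and 617600 to 756400 in the libraries labelled RevDKO). Summed macrophage markers lay between 1214 and 3055 in Control and 1481 and 2634 in the other group, and the ranges for endothelial, stellate and erythroid markers overlapped as well. Lymphocyte and neutrophil markers stayed at or below 23.4 in sum, with 2 of 11 lymphocyte and 1 of 7 neutrophil markers at 0 in every Control library. Summed cholangiocyte markers (8 genes, 4 of them under 5 RPKTM on average) did not overlap, at 218 to 261 in Control and 288 to 340 in the libraries labelled RevDKO. Its defining genes Epcam, Krt7, Krt19 and Cftr did not reach the expression filter, and the part of these cells in the results was not tested. In bulk RNA, fewer cells of a type and less RNA per cell cannot be told apart.

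The targeted genes were examined first, and the transcript of Nr1d1 was higher in the libraries labelled RevDKO. Nr1d1 (NM_145434, chr11:98629246-98636691 in mm9, minus strand) measured 16, 12.1 and 6.14 RPKTM in Control replicates 1 to 3 and 65.4, 62.5 and 70.5 in the libraries labelled RevDKO. Every library labelled RevDKO was thus above every Control library. The difference in log2(RPKTM + 1), the scale of all differences below, was 2.52 (95% interval 1.5 to 3.54, limma adjusted p = 0.011), and it was lost without Control replicate 3 or without RevDKO-labelled replicates 1 and 3 (adjusted p = 0.0535 to 0.118). Here and below libraries were left out singly, and a list of replicates names each one whose absence alone ended the call. Nr1d2 measured 200.3, 153 and 106 in Control and 294, 271 and 308 in the libraries labelled RevDKO, without overlap but not past the threshold (0.97, adjusted p = 0.68). The table gives 1 value a transcript and does not show floxed exons, so these values check neither the loss of the exons nor of the proteins, and the text therefore writes of libraries labelled RevDKO throughout. In the RevScapTKO libraries at ZT16, Nr1d1 was also high (109, 55.3 and 124). Scap, the sterol sensor that escorts SREBPs and was floxed only in RevScapTKO mice, measured 395 to 509 in Control, 447 to 533 in the libraries labelled RevDKO and 161 to 238 in RevScapTKO. Nr1d1 overlaps Thra on the opposite strand over 1075 bases, and whether reads were counted by strand is not given in the sources used here; Thra itself differed by 0.38 (adjusted p = 1).

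Across all genes, 40 of 13326 passed the threshold at ZT16 (0.300%, limma, Benjamini-Hochberg adjusted p under 0.05), 20 higher and 20 lower in the libraries labelled RevDKO (0.150% each). At an unadjusted p under 0.05 there were 756 genes (5.67%). In all 40 the values of the groups did not overlap, as in 14.6% of all genes tested, 6.88% with the libraries labelled RevDKO above and 7.71% with them below. The 40 genes were chosen on these same values, so their separation is no further support. The number of genes depended on single libraries: it was 13 without Control replicate 1, 23 without RevDKO-labelled replicate 1, 22 without RevDKO-labelled replicate 3, and between 29 and 35 without any of the others. Without Control replicate 1, 10 genes were higher and 3 lower, a share of 76.9% higher against 50% in the full set, and without Control replicate 3 the share was 70.0%. Leaving out Control replicate 1 ended 29 of the 40 calls, and 10 of the 40 passed in all 6 fits that left out 1 library.

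**Figure D1:**
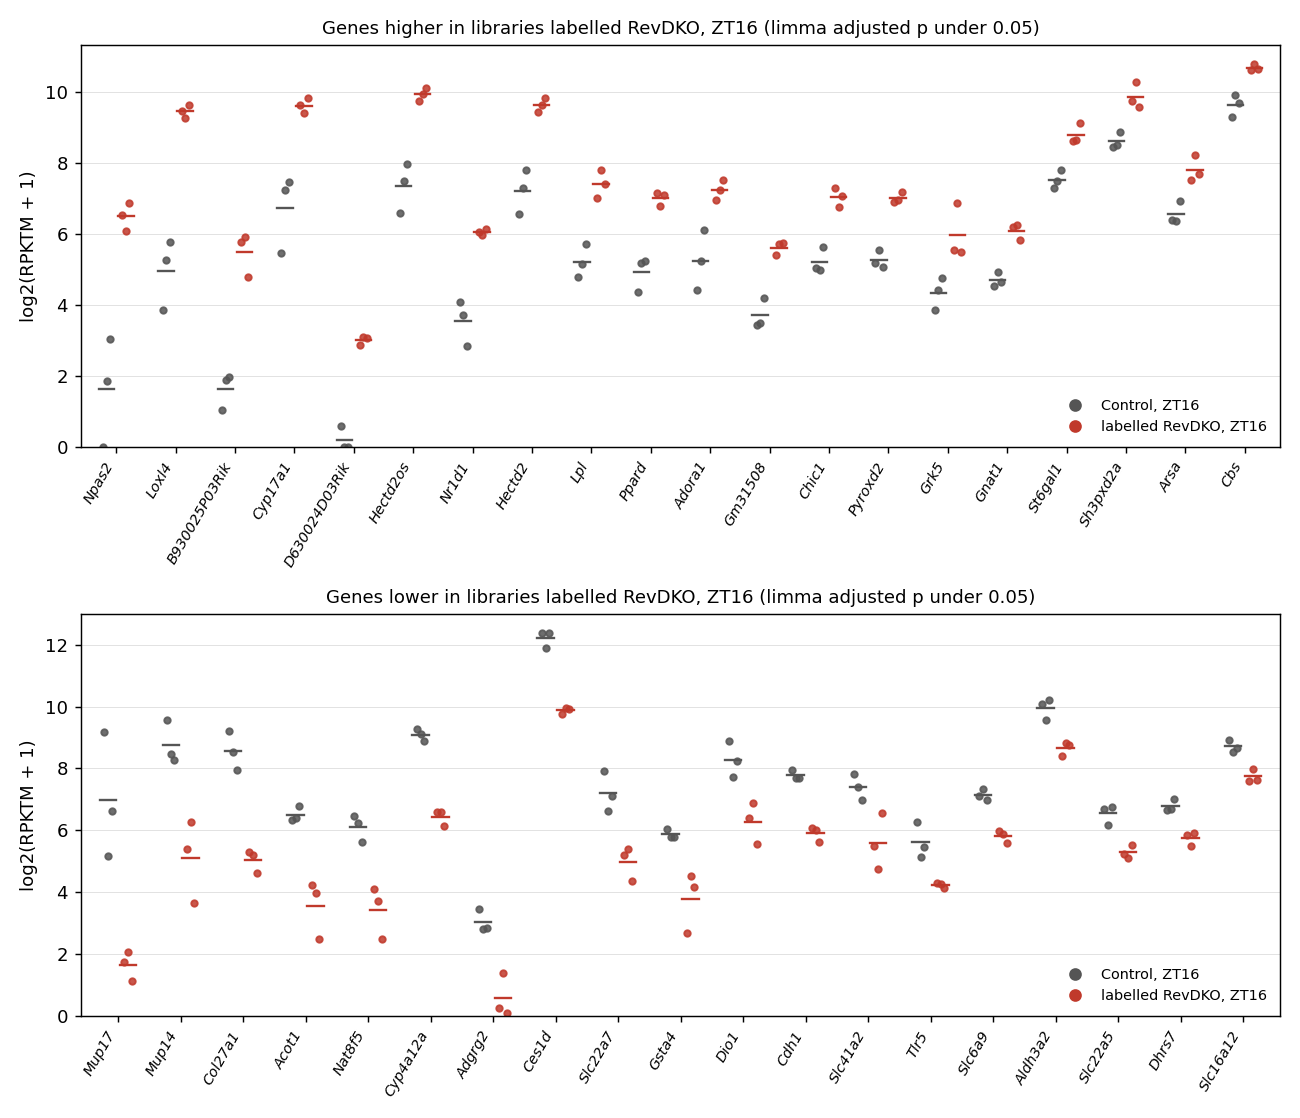
Level of 39 of the 40 genes past the threshold in each of the 6 libraries at ZT16, in log2(RPKTM + 1) on the vertical axis, with Control in grey, the libraries labelled RevDKO in red and a line at each group mean; the upper panel holds the 20 higher genes and the lower panel 19 lower genes. In each gene the 3 red and the 3 grey points do not overlap, and the Control points of Npas2, D630024D03Rik and B930025P03Rik lie low on the scale.

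Among the clock activators, Npas2 rose and the others did not pass the test at this time. Npas2, a CLOCK paralogue that pairs with BMAL1, measured 0, 2.64 and 7.28 RPKTM in Control and 91.5, 67.6 and 116 in the libraries labelled RevDKO. Each Control value was far below the lowest of the others, a log2 difference of 4.86 (SE 0.59, limma adjusted p = 1.74e-05), and the gene was past the threshold in every fit that left out a library. Arntl, the gene of BMAL1, measured 63.1, 89.5 and 99.2 in Control and 123, 142 and 140.3 in the libraries labelled RevDKO. The 3 Control values all lay below, yet the difference of 0.7 (95% interval 0.17 to 1.24) had an adjusted p of 0.562. Clock differed by 0.26 (425 to 512 in Control and 513 to 577 in the other group, adjusted p = 1). Arntl2, a BMAL1 paralogue, was low in both groups (1.93 to 7.04 and 2.41 to 8.24), and its difference of 0.26 turned its sign when Control replicate 3 was left out (-0.14).

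Among the REV-ERB and ROR receptors examined, Nr1d1 was higher and Nr1d2 and Rora did not pass. Rora (RORα), an activator that competes for ROR elements, was at 462 to 702 in Control and 671 to 705 in the other group (difference 0.26, 95% interval -0.22 to 0.74). The corepressor partners Ncor1, Hdac3, Tbl1x, Tbl1xr1 and Gps2 had differences between -0.22 and 0.29, all with overlapping groups.

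None of the 8 repressors of the PER, CRY and DEC kind passed the threshold at ZT16. Cry1, a cryptochrome that represses BMAL1 and CLOCK, measured 125, 165 and 193 in Control and 192, 122 and 223 in the libraries labelled RevDKO, which overlapped (difference 0.13, 95% interval -0.46 to 0.72). Cry2 differed by 0.03, Per1 by -0.23, Per2 by -0.23, Per3 by 0.28, Ciart by 0.06 and Bhlhe40 (DEC1) by 0.05, each with an adjusted p of 1. The signs of Cry1, Cry2, Per1, Ciart and Bhlhe40 turned when a single library was left out, and those genes have no stated direction. Bhlhe41 (DEC2), an E-box repressor, had the largest difference of the group, at 9.93, 3.54 and 3.78 in Control and 22.2, 10.8 and 13.9 in the other group. Its difference of 1.37 had an adjusted p of 0.591.

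None of the 11 tested clock output factors passed either, although 5 of them did not overlap between the groups, 3 above (6.88% of all genes) and 2 below (7.71%). Nfil3 (E4BP4), the D-box repressor with the ROR element shown above, measured 87.8, 131 and 100.1 in Control and 143, 179 and 163 in the libraries labelled RevDKO (0.61, adjusted p = 0.711). Its D-box counterparts Dbp (1.03, adjusted p = 0.99), Tef (0.55, adjusted p = 1) and Hlf (0.15, adjusted p = 1) did not pass, and Dbp ranged from 12 to 26.7 in Control and from 25.4 to 51.6 in the other group. Nampt, the enzyme that makes the NAD+ precursor NMN, was lower in each library labelled RevDKO (316, 299 and 299.8 in Control and 174, 196 and 164). Its difference of -0.78 had an adjusted p of 0.262, and it passed in 3 alternative fits (0.0357 with the 6 ZT16 libraries alone, 0.0161 with the 24 Control and RevDKO libraries, 0.00722 with library weights). Usp2, a deubiquitinase, measured 144, 196 and 97.9 and 80.6, 65.6 and 54.4 (-1.08, adjusted p = 0.68). Klf10, a TGFβ-inducible Krüppel-like factor, differed by 1.05, with 1 library labelled RevDKO at 317 and the others at 111 and 114. The remaining factors, Klf9, Klf15, Cipc and Noct, differed by -0.04, -0.16, -0.2 and -0.56, each with an adjusted p of 1, and that of Klf9 turned to 0.05 without Control replicate 1.

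**Figure D2:**
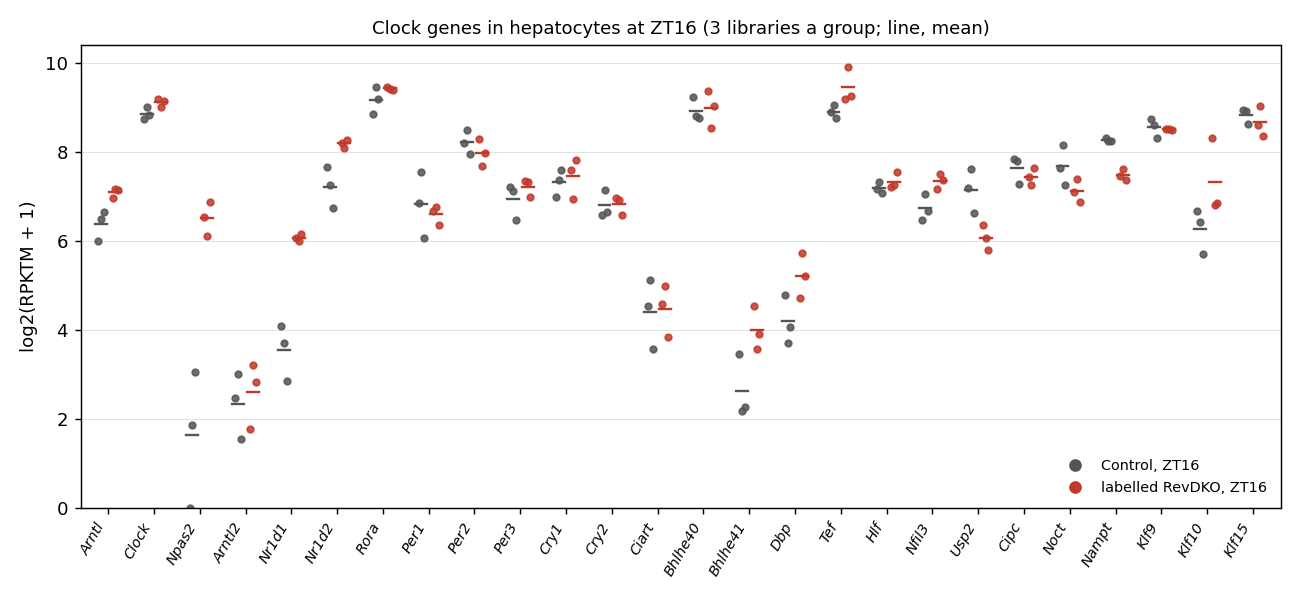
Level of 26 clock genes in each of the 6 libraries at ZT16, in log2(RPKTM + 1), with Control in grey, the libraries labelled RevDKO in red and a line at each group mean. Npas2 and Nr1d1 stand clearly above their Control points, and Per1, Per2, Per3, Cry1, Cry2, Ciart and Bhlhe40 overlap.

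Arntl, Nfil3 and Cry1 passed the threshold at both light-phase times, ZT4 and ZT10, but not at ZT16. Control Arntl was 36.7 ± 19.6 RPKTM (SD, n = 3) at ZT4, 6.49 ± 3.6 at ZT10, 83.9 ± 18.7 at ZT16 and 116 ± 3.52 at ZT22, whereas the libraries labelled RevDKO stayed between 128 ± 15.1 and 151 ± 6.72. The Control means thus varied with time more than the others did, and the log2 difference was 2.14 at ZT4, 4.2 at ZT10, 0.7 at ZT16 and 0.29 at ZT22. Set against the mean of the 3 other times, the difference at ZT16 gave -1.51 (unadjusted p = 2.08e-05, limma adjusted p = 0.277). Cry1 gave -1.38 in that contrast (unadjusted p = 0.000254) and Nfil3 gave -0.93 (unadjusted p = 0.00334), both with an adjusted p of 1. No gene passed the threshold in that contrast in the limma fit (0 of 13326, 0%), 352 had an unadjusted p under 0.05 (2.64%), and with library weights 2 passed. Npas2 went from 3.31 ± 3.69 at ZT16 to 42.2 ± 15.9 at ZT22 in Control. Its differences were 4.6, 5.6, 4.86 and 1.41 at ZT4, ZT10, ZT16 and ZT22, the last not past the threshold (adjusted p = 0.495). Nr1d1 ran the other way, with 0.0 at ZT4, 0.95 at ZT10, 2.52 at ZT16 and 2.73 at ZT22. Its Control level fell from 257 ± 128 at ZT4 to 11.4 ± 4.97 at ZT16, against 244 ± 104 and 66.1 ± 4.02 in the libraries labelled RevDKO.

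**Figure D3:**
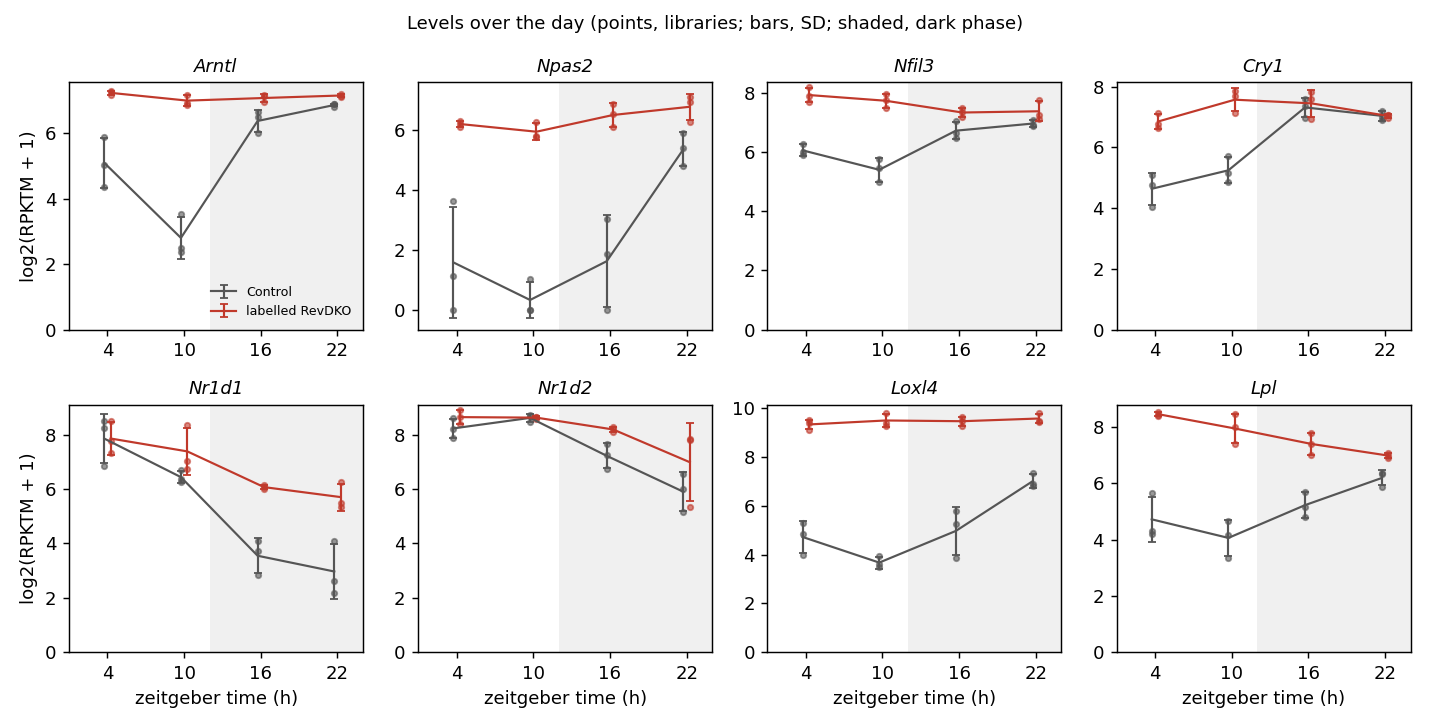
Levels of 8 genes at ZT4, ZT10, ZT16 and ZT22 (horizontal axis, h after lights on, dark phase shaded) in log2(RPKTM + 1), with 3 libraries a group as points, the group mean as a line and its SD as bars, Control in grey and libraries labelled RevDKO in red. Control Cry1 is at the red line at ZT16 and ZT22 and Control Arntl nears it at ZT22, while Loxl4, Lpl and Npas2 stay below it at ZT16.

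Outside the clock, Loxl4 had the largest rise with an abundant transcript. Loxl4, a secreted copper amine oxidase that cross-links collagen and elastin (NM_053083, chr19:42666769-42687296 in mm9, minus strand), measured 13.6, 37.4 and 53.5 RPKTM in Control and 705, 616 and 798 in the libraries labelled RevDKO. The lowest of these was far above the highest Control value, with a log2 difference of 4.49 (SE 0.33, limma adjusted p = 1.71e-10), and the call held in all 18 alternative fits. Lpl, lipoprotein lipase, which frees fatty acids from circulating triglycerides and is low in normal adult liver, measured 26.9, 35.1 and 51.4 in Control and 128, 221 and 168 in the libraries labelled RevDKO. It rose by 2.17 (SE 0.35, limma adjusted p = 0.000839), and the call held in all 18 alternative fits. So did the call of Gm31508, a non-coding transcript (9.93 to 17.4 and 41.3 to 52.8, 1.9, adjusted p = 0.000165). Ppard, the gene of the fatty acid receptor PPARδ, measured 19.7, 35.5 and 36.9 in Control and 141, 110.2 and 137 in the other group, a log2 difference of 2.08 (SE 0.37, limma adjusted p = 0.00337), and the call was lost without Control replicate 1 (adjusted p = 0.0771). 

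Cyp17a1, the steroid 17α-hydroxylase, measured 43.5, 152 and 178 in Control and 796, 680.3 and 908 in the libraries labelled RevDKO. Its rise of 2.89 (SE 0.63, limma adjusted p = 0.0258) was lost without Control replicate 1 or without RevDKO-labelled replicates 1, 2 and 3 (adjusted p = 0.0772 to 0.309), and Control replicate 1 was the lowest of its group. Hectd2, a HECT-type ubiquitin ligase, and the transcript Hectd2os on the opposite strand moved side by side, at 93.4, 157 and 224 and 94.9, 179.9 and 252 in Control and 696, 803 and 907 and 865, 996 and 1110.3 in the libraries labelled RevDKO. The differences were 2.41 (adjusted p = 0.00203) and 2.59 (adjusted p = 0.00239), and the loci overlap by 1718 bases, so reads could be shared between them. Both calls were lost without Control replicate 1 (adjusted p = 0.0534 and 0.0662). Adora1, the adenosine A1 receptor, measured 20.5, 36.6 and 68.2 in Control and 124, 151 and 184 in the other group, a log2 difference of 1.99 (SE 0.36, limma adjusted p = 0.00479). It overlaps Mybph on the opposite strand by 2018 bases, and Mybph differed by 2.70 with an adjusted p of 0.0553. The call of Adora1 was lost without Control replicate 1 or without RevDKO-labelled replicate 3 (adjusted p = 0.0538 to 0.105). Of the non-coding transcripts, B930025P03Rik was at 1.08 to 2.96 in Control and 27 to 59.4 in the other group (3.85, adjusted p = 0.0085, lost without Control replicate 1 or without RevDKO-labelled replicates 1 and 2 (adjusted p = 0.0535 to 0.0891)). D630024D03Rik was listed at 0 in 2 Control libraries and at 0.516 in the third, against 6.39, 7.63 and 7.39 (2.82, adjusted p = 0.00188), and with a pseudocount of 10 it did not pass (adjusted p = 0.41).

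Further rises were smaller, and those genes, named after their values were seen, were Chic1 (1.82), Pyroxd2 (1.74, an oxidoreductase), Grk5 (1.63, a kinase of G protein-coupled receptors), Gnat1 (1.39, the α subunit of rod transducin), St6gal1 (1.27, a sialyltransferase), Sh3pxd2a (1.26, a scaffold protein of invadopodia) and Arsa (1.25, arylsulfatase A). Pyroxd2 was the steadiest, at 35.7, 45.9 and 32.6 in Control and 119.5, 123 and 145 in the libraries labelled RevDKO, with an adjusted p of 7.36e-05 and a call in all 18 alternative fits. The other calls were less steady. Chic1 lost it without Control replicates 1 and 2 or without RevDKO-labelled replicates 1 and 3 (adjusted p = 0.0728 to 0.105) and Gnat1 without Control replicate 1 (adjusted p = 0.0688). St6gal1 lost it without Control replicate 1 or without RevDKO-labelled replicate 3 (adjusted p = 0.0793 to 0.081), Sh3pxd2a without Control replicates 1 and 2 or without RevDKO-labelled replicates 1 and 2 (adjusted p = 0.0535 to 0.271) and Arsa without Control replicates 1 and 2 or without RevDKO-labelled replicates 1, 2 and 3 (adjusted p = 0.0535 to 0.352). Grk5 lost it without Control replicates 1 and 2 or without RevDKO-labelled replicate 2 (adjusted p = 0.0519 to 0.317). In Grk5 the library labelled RevDKO replicate 2 stood apart (46.4, 117 and 44). Arsa shares 1173 bases with C230037L18Rik on the opposite strand, which differed by 1.66 (adjusted p = 0.0619).

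Of the falls, those of Col27a1, Ces1d and Cyp4a12a held in all 18 alternative fits. Col27a1, a fibrillar collagen chain, measured 591, 368 and 245 RPKTM in Control and 38.3, 35.5 and 23.6 in the libraries labelled RevDKO. It fell by 3.52 (SE 0.51, limma adjusted p = 0.000209). Ces1d, a carboxylesterase that hydrolyses triglycerides in the endoplasmic reticulum, was abundant, at 5279, 3829 and 5357 in Control and 864, 988 and 975 in the libraries labelled RevDKO. It fell by 2.34 (SE 0.34, limma adjusted p = 0.000209), and the call again held in all 18 alternative fits.

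Other genes among the largest falls lost their call when single libraries were left out. Slc22a7, the organic anion transporter OAT2, measured 243, 97.7 and 136 in Control and 35.6, 41 and 19.7 in the libraries labelled RevDKO (-2.23, limma adjusted p = 0.0165), and the call was lost without Control replicates 1 and 3 or without RevDKO-labelled replicates 1 and 3 (adjusted p = 0.0535 to 0.193). Dio1, the deiodinase that activates thyroid hormone, measured 473, 211 and 301 and 83.4, 116 and 45.9 (-2.01, adjusted p = 0.0152), and the call was lost without Control replicates 1 and 3 or without RevDKO-labelled replicates 1 and 3 (adjusted p = 0.0535 to 0.178). The groups did not overlap in either gene. Nat8f5, of the N-acetyltransferase 8 family, measured 87.1, 74.5 and 48.3 and 16, 12.2 and 4.6 (-2.67, adjusted p = 0.011), and the call was lost without Control replicates 1 and 2 or without RevDKO-labelled replicate 3 (adjusted p = 0.0509 to 0.149). Cdh1, E-cadherin, the junction protein that is denser in periportal hepatocytes, measured 245, 207 and 203 and 66.2, 63.6 and 48.7. Its fall of 1.87 (SE 0.39, limma adjusted p = 0.018) was lost without Control replicates 1, 2 and 3 or without RevDKO-labelled replicates 1, 2 and 3 (adjusted p = 0.0535 to 0.148), that is without any 1 of the 6. Adgrg2, an adhesion receptor, was low in both groups (6.09 to 9.95 in Control and 0.061 to 1.64 in the other group, -2.46, adjusted p = 0.00902), and the call was lost without Control replicate 1 or without RevDKO-labelled replicates 1 and 3 (adjusted p = 0.0656 to 0.105) and with a pseudocount of 0.1 (adjusted p = 0.0698).

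The other falls, also named after their values were seen, were Slc41a2 (-1.8, a magnesium transporter), Tlr5 (-1.38, the flagellin receptor), Slc6a9 (-1.32, the glycine transporter GLYT1), Aldh3a2 (-1.29, the fatty aldehyde dehydrogenase), Slc22a5 (-1.25, the carnitine transporter OCTN2), Dhrs7 (-1.04, a short-chain dehydrogenase) and Slc16a12 (-0.97, of the monocarboxylate transporter family). Their adjusted p values lay between 0.00902 and 0.0313. All 7 depended on single libraries. Slc41a2 lost the call without Control replicates 1 and 2 or without RevDKO-labelled replicates 1 and 2 (adjusted p = 0.0686 to 0.292) and Tlr5 without Control replicate 1 or without RevDKO-labelled replicates 1, 2 and 3 (adjusted p = 0.0535 to 0.228). Slc6a9 lost it without Control replicates 1 and 2 or without RevDKO-labelled replicates 2 and 3 (adjusted p = 0.0593 to 0.148), Aldh3a2 without Control replicates 1 and 3 or without RevDKO-labelled replicates 1, 2 and 3 (adjusted p = 0.0647 to 0.201) and Slc22a5 without Control replicates 1 and 3 or without RevDKO-labelled replicates 1 and 2 (adjusted p = 0.0535 to 0.0891). Dhrs7 lost it without Control replicates 1, 2 and 3 or without RevDKO-labelled replicates 1, 2 and 3 (adjusted p = 0.0509 to 0.252) and Slc16a12 without Control replicates 1, 2 and 3 or without RevDKO-labelled replicates 1 and 3 (adjusted p = 0.0509 to 0.228). Aldh3a2 is the most abundant of them, at 1076, 751 and 1188 in Control and 336, 455 and 428 in the libraries labelled RevDKO.

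Among enzymes of fatty acid ω-hydroxylation and acyl-CoA hydrolysis all 12 tested members had negative differences (median -1.14, against -0.003 over all genes), 9 of the 12 had libraries labelled RevDKO below Control without overlap (7.71% of all genes), and 2 of the 12 passed (0.150% of all genes). Cyp4a12a, a male-biased fatty acid ω-hydroxylase, measured 619, 551 and 471 in Control and 96.1, 94.9 and 69.2 in the libraries labelled RevDKO. It fell by 2.65 (SE 0.4, limma adjusted p = 0.0003), and the call held in all 18 alternative fits. Acot1, a cytosolic acyl-CoA thioesterase, measured 80.3, 83.1 and 109 and 17.8, 14.7 and 4.56. It fell by 2.95 (adjusted p = 0.0122), and the call was lost without Control replicates 1 and 3 or without RevDKO-labelled replicate 3 (adjusted p = 0.0688 to 0.163). Acot3, Cyp4a10 and Acot2 had differences of -2.81, -1.78 and -1.44 with adjusted p values of 0.115, 0.311 and 0.371. These families are made of close paralogues, and reads may be split between them. Many members are known PPARα targets, and the other listed genes of fatty acid oxidation and ketogenesis gave negative differences in 18 of 22 (median -0.27) with none past the threshold. There Acaa1b, a peroxisomal thiolase, measured 1739.7, 935 and 2069.5 in Control and 353, 434 and 494 in the libraries labelled RevDKO (-1.82, adjusted p = 0.0635). Cpt1a, the gate of mitochondrial fatty acid import, differed by -0.57 (adjusted p = 0.584), and Fgf21, a fasting hormone, by 1.54 in the opposite direction (4.46 to 6.84 and 13.9 to 24.4, adjusted p = 0.965).

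Major urinary proteins, male-biased lipocalins secreted into urine, gave negative differences in 15 of 17 tested genes (median -1.83), 9 of 17 below Control without overlap (7.71% of all genes), and 2 passed (0.150% of all genes). Mup17 measured 579, 35 and 97.6 RPKTM in Control and 2.33, 3.24 and 1.17 in the libraries labelled RevDKO. It fell by 5.35 (SE 0.95, limma adjusted p = 0.00337), the largest fall of the comparison, from Control values that were themselves far apart, and it was lost without Control replicate 1 (adjusted p = 0.0876). Mup14 measured 758, 354 and 309 and 40.9, 76.9 and 11.6 (-3.66, adjusted p = 0.0295). The call of Mup14 was lost without Control replicates 1, 2 and 3 or without RevDKO-labelled replicates 1 and 3 (adjusted p = 0.0669 to 0.322), and its locus overlaps Mup2 by 3047 bases on the same strand. Mup3, the most abundant member, differed by -0.38 (10131 to 14113 in Control and 8405 to 9356 in the other group, adjusted p = 1). The members are near-identical copies, so that single genes are uncertain. Control replicate 1 had the highest Control value in each of the 9 members without overlap.

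Of the other sex-biased genes, 11 of 16 male-biased genes gave negative differences, with Cyp4a12a alone past the threshold. Differences in that list ran from -2.65 for Cyp4a12a to 1.76 for Moxd1. Of 12 tested female-biased genes 7 gave positive differences and 5 negative ones, from -2.81 for Acot3 to 2.89 for Cyp17a1. Cyp17a1 alone passed there, and without overlap 2 of the 12 lay above Control (6.88% of all genes) and 3 below (7.71%). Over all genes 0.150% passed in each direction. Susd4, a male-biased membrane protein of complement regulation, measured 76.7, 77.1 and 59.4 in Control and 26.3, 18.5 and 11.9 in the libraries labelled RevDKO (-1.91, adjusted p = 0.0539). In the list of growth hormone and STAT5 signalling, a pathway known to control that bias, 5 differences were positive and 6 negative, and none passed.

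Cbs stood out among the enzymes of amino acid catabolism. Cbs, cystathionine β-synthase, which commits homocysteine to transsulfuration, measured 628, 973 and 827 RPKTM in Control and 1567, 1784 and 1602 in the libraries labelled RevDKO. It rose by 1.05 (SE 0.15, limma adjusted p = 0.000239) and kept its call in all 18 alternative fits. Of the 32 tested genes of amino acid catabolism and the methionine cycle, 23 gave positive differences (median 0.35). In 14 of the 32 the libraries labelled RevDKO lay above Control without overlap (6.88% of all genes). Cbs alone passed, where 0.150% of all genes passed as higher. Gldc, of the glycine cleavage system, differed by 0.69 (610.1 to 790.1 and 985 to 1351, adjusted p = 0.102). Mat1a, the liver's S-adenosylmethionine synthetase, differed by 0.83 (adjusted p = 0.409), Amdhd1 of histidine breakdown by 0.88 (adjusted p = 0.193) and Tdo2 of tryptophan breakdown by 0.7 (adjusted p = 0.688), all without overlap. Control replicate 1 was the lowest Control library in Cbs, Gldc, Mat1a and Tdo2.

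Of 18 tested glutathione transferases 1 passed (0.300% of all genes in either direction). Gsta4, an α class enzyme that conjugates the lipid peroxidation product 4-hydroxynonenal, measured 64.8, 54.6 and 53.7 in Control and 5.43, 22.1 and 16.9 in the libraries labelled RevDKO, and it fell by 2.08 (SE 0.46, limma adjusted p = 0.0304). The call was lost without Control replicates 1, 2 and 3 or without RevDKO-labelled replicates 1 and 3 (adjusted p = 0.0718 to 0.348). The μ class members Gstm1, Gstm2, Gstm3, Gstm4, Gstm6 and Gstm7 each had all libraries labelled RevDKO above Control, with differences from 1.04 to 2.43, but none passed. Reads may be shared between members of this class, which was not tested, so they may not be separate observations. Gstm2 (11.9, 29.2 and 32.5 and 102, 130.5 and 72.7) came nearest, at an adjusted p of 0.0628. Gstt1, of the θ class, was below without overlap (-0.96, adjusted p = 0.562). Over the 18 tested transferases 11 differences were positive and 7 negative. Without overlap, 7 of the 18 lay above Control (6.88% of all genes) and 4 below (7.71%). Among the 29 tested Cyp1, Cyp2 and Cyp3a enzymes none passed, with Cyp2a5 at 2852, 1488 and 1857 in Control and 6999.6, 9475 and 7707 in the other group (2.01, adjusted p = 0.0689) and Cyp3a11 at 1267, 4781 and 2864 and 333, 343 and 287 (-3.01, adjusted p = 0.107).

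Lipid synthesis genes did not pass the threshold at ZT16. Of 10 fatty acid synthesis genes, 9 gave positive differences (median 0.40) and every one overlapped between the groups. Fasn, fatty acid synthase, measured 2966, 9799 and 8155 in Control and 16763, 7905 and 10848 in the libraries labelled RevDKO (0.87, 95% interval -0.15 to 1.88, adjusted p = 1). The Control spread was wide there, with replicate 1 the lowest, as in Acly (1029.99, 2475 and 1958) and Acaca (376, 985 and 647). Differences of Fasn at ZT4, ZT10 and ZT22 were 0.0, -2.61 and 1.29. Within the 7 genes of the SREBP activation machinery, Srebf1 was at 1621 to 2129.7 in Control and 2221 to 2816 in the other group (0.33, adjusted p = 1). Insig2, which retains SCAP in the endoplasmic reticulum and is a known REV-ERB target, measured 583, 854 and 951 and 1113, 1106 and 1202 (0.55, adjusted p = 0.853). The 20 cholesterol synthesis enzymes gave 16 negative differences (median -0.17), with all groups overlapping and differences from -0.71 for Tm7sf2 to 0.20 for Hsd17b7. In triglyceride synthesis, Gpat3 was lower in each library labelled RevDKO (-1.44, adjusted p = 0.436) and Gpam higher (0.7, adjusted p = 0.404), and neither of them passed.

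In each of the remaining lists no more than 1 gene passed the threshold, where 0.300% of all genes passed in either direction. Lpl was the only 1 of 18 lipases and fatty acid uptake genes to pass, Ppard the only 1 of 24 other nuclear receptors, and Cdh1 the only 1 of 15 periportal genes. Pparg, an adipogenic receptor, measured 38.5, 12.3 and 29.6 in Control and 5.54, 10.1 and 7.68 in the libraries labelled RevDKO (-1.56, adjusted p = 0.36). No gene passed among desaturases and elongases (10), lipid droplet proteins (13), apolipoproteins (15), cholesterol uptake and efflux (15), bile acid genes (19), glucose and glycogen enzymes (29), insulin and feeding response genes (21), urea cycle genes (11), hepatokines (23), acute phase proteins (22), stress response genes (19), heat shock genes (14), drug metabolism regulators (10), pericentral genes (15), cell cycle genes (20) and immediate early factors (17). Of the immediate early factors 15 of 17 gave negative differences (median -0.38), 4 below Control without overlap (7.71% of all genes) and 1 above (6.88%). Among the acute phase proteins 7 of 22 lay below without overlap (7.71% of all genes) and 3 above (6.88%), with none past the threshold. Saa1 was among those below (113, 221 and 117 and 36.2, 29.2 and 19.1, -2.35, adjusted p = 0.214).

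**Figure D4:**
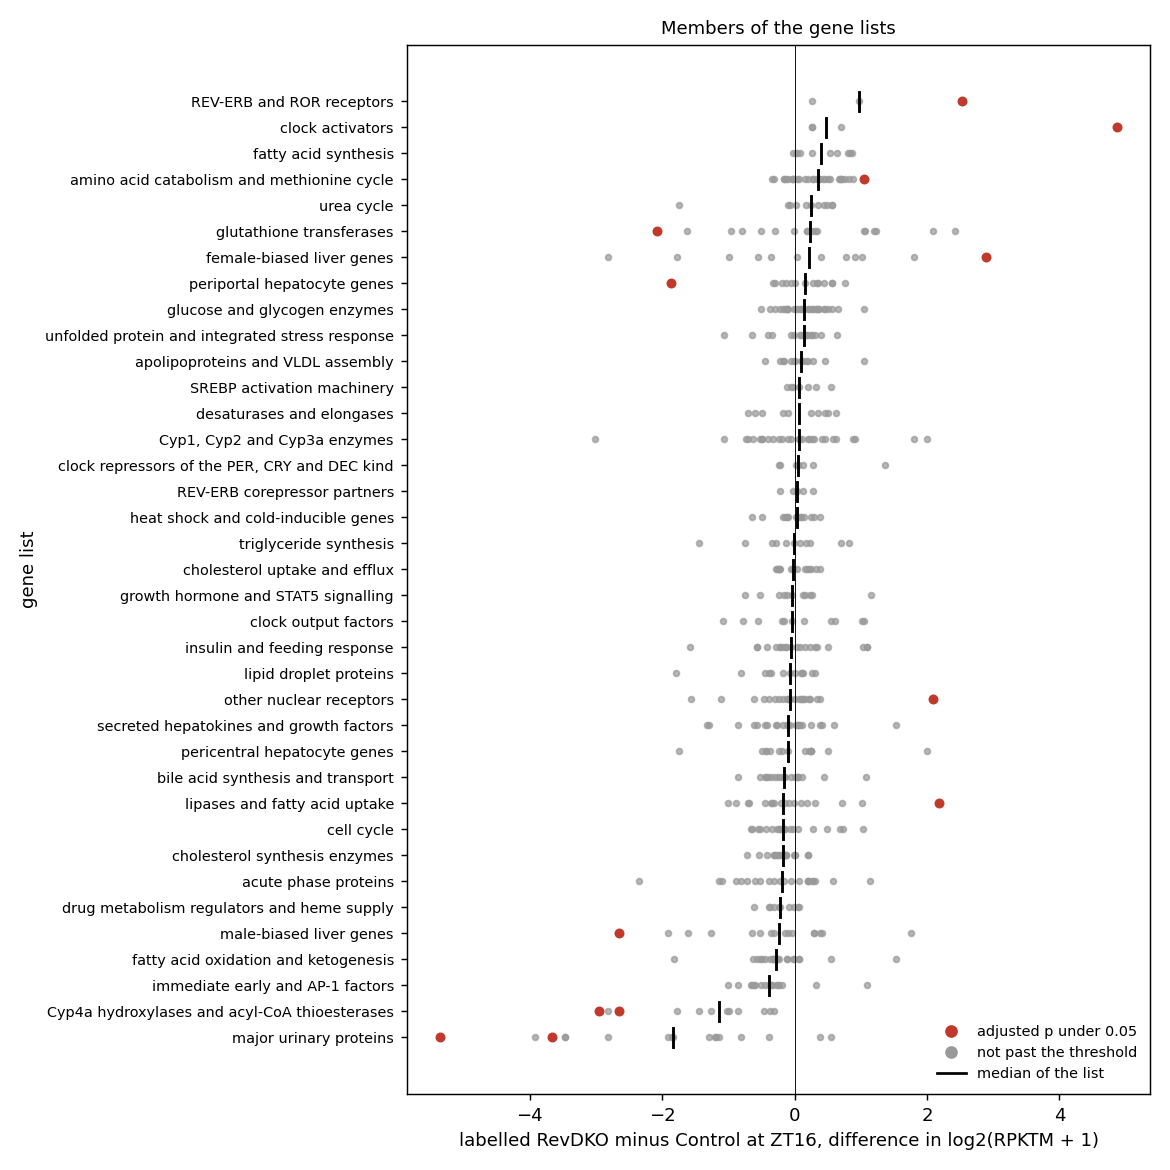
Difference between libraries labelled RevDKO and Control at ZT16, in log2(RPKTM + 1), for each tested member of each gene list; red points have an adjusted p under 0.05, grey points do not, and a black bar marks the median of the list. The lists of Cyp4a hydroxylases with thioesterases (median -1.14) and of major urinary proteins (median -1.83) lie furthest to the left.

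The 40 genes were then followed at the other times, which used other libraries. The estimate of the spread was shared over all 36 libraries, so the calls at those times are not independent of the choice at ZT16. The sign of the ZT16 difference was shared by 40 of 40 at ZT4, 39 of 40 at ZT10 and 40 of 40 at ZT22, against 58.4%, 59.7% and 57.5% of all genes tested. The sign was the same at all 3 other times in 39 of 40 genes, against 26.4% of all genes, and the exception was Mup14 with 0.02 at ZT10. Past the threshold were 19 of the 40 at ZT4, 26 at ZT10 and 21 at ZT22, where 0.585%, 1.19% and 0.488% of all genes passed. At all 3 other times 9 of the 40 passed, at 2 of them 15, at 1 of them 9 and at none 7. The 9 were Loxl4, Cyp17a1, Hectd2, Hectd2os, Grk5, Aldh3a2, B930025P03Rik, Col27a1 and Pyroxd2, and Pyroxd2 was the most even, with 1.72, 1.68, 1.74 and 1.7 at ZT4, ZT10, ZT16 and ZT22. The 7 that passed at ZT16 alone were Gsta4, Arsa, Mup14, Tlr5, Cdh1, St6gal1 and Slc22a7. Passing at 1 time and not at another does not show that the times differ: in the contrast of ZT16 with the mean of the other times, Tlr5 had an unadjusted p of 0.00649, Mup14 of 0.00773, Cbs of 0.00873 and Cdh1 of 0.015, all with an adjusted p of 1. The size of the difference was largest at ZT16 in 19 of the 40, which were chosen on ZT16 values. Loxl4 differed by 4.61, 5.82 and 2.57 at ZT4, ZT10 and ZT22, and Lpl by 3.74, 3.89 and 0.8, while their Control levels were highest at ZT22 (129 ± 26.7 and 73 ± 12.9 RPKTM).

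**Figure D5:**
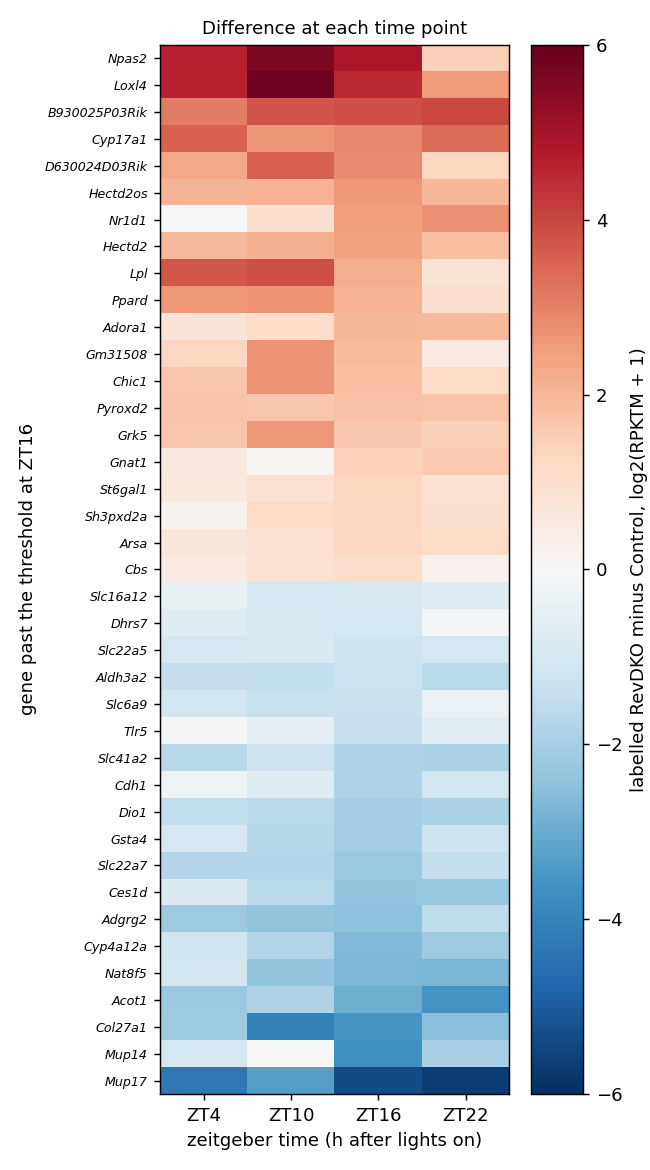
Difference between libraries labelled RevDKO and Control at ZT4, ZT10, ZT16 and ZT22 for 39 of the 40 genes past the threshold at ZT16, in log2(RPKTM + 1), red for higher and blue for lower in the libraries labelled RevDKO. Nearly every row keeps 1 colour over the 4 times, with Mup14 at ZT10 and Nr1d1 at ZT4 near white.

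The RevScapTKO libraries at ZT16 give the same genes in mice whose Scap was floxed as well, set against the same 3 Control libraries, so that agreement between the comparisons is not independent. In that comparison 432 of 13326 genes passed (3.24%). Loxl4 was at 621, 571 and 610.1 RPKTM and Npas2 at 72.2, 67.2 and 45.5 in the RevScapTKO libraries, both far above Control. Col27a1 (29, 23.2 and 20.7) and Cyp4a12a (44, 27.1 and 20.6) were far below Control there. Cyp4a12a also lay below the libraries labelled RevDKO (69.2 to 96.1) without overlap. Other genes too stood elsewhere in the RevScapTKO libraries than in those labelled RevDKO. Cdh1 was at 190.2, 296 and 265 against 48.7 to 66.2, Mup14 at 1461, 453 and 924 against 11.6 to 76.9, and Ppard at 51.5, 41.1 and 32.1 against 110.2 to 141. Cyp17a1 was at 305, 414 and 108 against 680.3 to 908 and Dio1 at 328, 137 and 191 against 45.9 to 116. The values did not overlap in any of these genes, which were named because they stood apart. They are not a full list, as Gm31508, Gnat1 and Sh3pxd2a did not overlap either. The share of all genes without overlap between these 2 groups is not given here, and the difference between the 2 deletions was not tested.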

How the data were processed

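Hepatocyte RNA was sequenced by the authors after ribosomal RNA removal with a stranded kit. Per the methods and the submitters' processing notes, reads were aligned with STAR to mm9 and counted over RefSeq transcripts with HOMER; versions and the use of strand in counting are not given in the sources used here. The deposited values are RPKM multiplied by 10 (RPKTM), which the authors quantile normalized; this hides any shift shared by most transcripts and any difference in depth. Livers and libraries were processed at the same time per the methods, and the replicates are described as biological.

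For each of 25095 symbols the transcript of highest mean was taken from 42322, and it was kept above 5 RPKTM in at least 3 of 36 libraries. log2(RPKTM + 1), which understates changes of low genes, was fitted with limma 3.58.1 (R 4.3.3, mean-variance trend, two-sided) with 1 mean per genotype and time over all 36 libraries, which then share 1 estimate of the spread. The Benjamini-Hochberg adjustment ran over all 13326 genes, with a threshold of 0.05. The fit was also run on simulated data with independent normal noise, which did not model quantile normalization or a single outlying library. Tables and plots used Python 3.11.15 with pandas 2.3.3 and matplotlib 3.10.9. Named genes were Nr1d1, Nr1d2, Scap, the clock genes, the 12 largest rises and falls past the threshold without overlap, and up to 4 genes past it in each list; 2 genes are not reported here. The genes, lists and tests were chosen with earlier results of these data known. Promoter windows are RefSeq sequences in GRCm38.p6, whose coordinates are not those of mm9, matched by accession or symbol for 10512 of the 13326 genes. Overlaps of loci are those of the deposited coordinates. Alternatives covered the libraries fitted, pseudocount, filter, transcripts, variance model, library weights, scaling, macrophage markers, replicate block and each library left out.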

Additional observations from a re-analysis of the deposited data

Results flagged for a closer look

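Klf10, a Krüppel-like factor, had all 3 libraries labelled RevDKO above the 3 Control libraries at ZT16 (log2 difference 1.05) and all 3 below at ZT10 (-1.51). Tef, a D-box activator, did likewise, with 0.55 at ZT16 and -0.41 at ZT10. Neither gene passed the threshold at either time, and the difference between ZT16 and ZT10 was not tested. Against the mean of the 3 other times, the ZT16 difference of Klf10 gave 1.66 (unadjusted p = 0.0447) and that of Tef 0.46 (unadjusted p = 0.247), with limma adjusted p-values of 1. The check for samples far from their group was not made, since groups held 3 libraries.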

How the results depend on the processing

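The count of genes past the threshold at ZT16, 40 in the main fit, was 73 with the 6 ZT16 libraries alone and 98 with the 24 Control and RevDKO libraries. It was 69 over all transcripts, 169 with library weights, 61 with macrophage markers as a covariate and 22 with no filter, and between 13 and 35 with 1 library left out. It was 43 and 51 with pseudocounts of 0.1 and 10, 40 with the filter on the 6 libraries or with median rescaling, and 35 without the trend. Of the 40 genes, 31 kept their call with the 6 ZT16 libraries alone and 20 with no filter. The 9 lost with the 6 libraries were Gsta4, Dhrs7, Arsa, Dio1, Slc41a2, Grk5, Tlr5, Adora1 and Adgrg2 (limma adjusted p = 0.0546 to 0.187). The cause of these changes was not tested, except that fewer samples enter when a library is left out. The contrast of ZT16 with the other times cannot be made with the ZT16 libraries alone, and in the other fits it had 0 genes past the threshold, except 2 with library weights. With the replicate number as a block the count was 51, and 2 calls were lost, Slc16a12 and Arsa (both adjusted p = 0.0582). Same-numbered libraries correlated at 0.05, -0.10 and 0.19 in their deviations from the group means, so the numbers were not taken as pairs. Median rescaling moved the median difference of all genes from -0.003 to 0.0039. Over the 40 genes, 574 alternative values kept direction and threshold, 146 kept direction only and none turned. For genes not past the threshold 429 values kept their side, 3 passed (Nampt), and 18 turned direction, all of small size. With library weights Arntl2 was at -0.0677. With 1 library left out, the log2 difference ran for Arntl2 from -0.1363 to 0.6752, for Bhlhe40 from -0.142 to 0.2779, for Ciart from -0.3665 to 0.4113, for Cry1 from -0.0465 to 0.3844, for Cry2 from -0.0813 to 0.2031, for Klf9 from -0.1617 to 0.0542, for Per1 from -0.601 to 0.1394 and for Scap from -0.0407 to 0.1424.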
